A study of Mus musculus with 76 samples.

Results

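Transforming growth factor beta (TGF-beta) signalling was followed through 9 genes, listed by name and found among the 54232 genes of the count table: the ligands Tgfb1, Tgfb2 and Tgfb3, the ligand-binding protein Ltbp1, the receptors Tgfbr1 and Tgfbr2, the signal transducer Smad3, the inhibitor Smad7 and the target gene Tgfbi. All 9 passed the expression filter in every tissue. Heart, kidney and visceral fat (visceral adipose tissue, VFAT) were taken for RNA sequencing from male Fox Chase SCID mice (CB17/Icr-Prkdcscid/IcrlcoCrl) at 12 weeks of age, a strain that lacks functional T and B lymphocytes in every arm, controls included. The 5 arms were sham surgery with no transplant (Sham), partial nephrectomy with no transplant (PNx), and partial nephrectomy with transplanted control cells, with Lenti-adipo-NaKtide cells (NaKtide cells) or with Lenti-adipo-scrambled cells (scrambled cells). NaKtide is a peptide that blocks signalling from the Na/K-ATPase to the kinase Src. The labels give neither the type of the transplanted cells nor the promoter of the lentiviral construct, and all 3 cell arms had the partial nephrectomy. The 76 libraries formed 74 samples, 5 in each of the 15 groups except VFAT scrambled cells, which had 4, with 1241590 to 20037187 counts per library. Whether the samples of a group are separate animals is not stated in the labels, and the spread that the p-values rest on may therefore be technical.

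As background, TGF-beta ligands are secreted in an inactive complex that latent TGF-beta binding proteins such as Ltbp1 tether to the matrix. Once released, a ligand binds the type II receptor (Tgfbr2), which recruits and phosphorylates the type I receptor (Tgfbr1), and this phosphorylates Smad2 and Smad3, which enter the nucleus with Smad4. Smad7 is induced by the pathway and blocks the type I receptor, and Tgfbi is a secreted matrix protein named for its induction by TGF-beta. The pathway is known for driving fibrosis in the kidney and the heart, and in adipose tissue for restraining adipocyte differentiation.

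The RefSeq promoter table held 7 of the 9 genes. The sequences upstream of Ltbp1 and Tgfbi are shown because these were the members called after PNx, both in VFAT. Both are on the plus strand of GRCm38.p6, at chr17:75005279-75005528 and chr13:56609336-56609522, and end before the gene's start in GENCODE M21. Capitals mark CAGAC or its complement GTCTG, the core of the Smad-binding element.
Ltbp1: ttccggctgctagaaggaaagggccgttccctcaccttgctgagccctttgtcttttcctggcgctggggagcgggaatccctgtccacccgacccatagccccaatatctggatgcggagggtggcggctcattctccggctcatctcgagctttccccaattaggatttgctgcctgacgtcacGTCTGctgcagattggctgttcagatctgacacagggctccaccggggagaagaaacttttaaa
Tgfbi: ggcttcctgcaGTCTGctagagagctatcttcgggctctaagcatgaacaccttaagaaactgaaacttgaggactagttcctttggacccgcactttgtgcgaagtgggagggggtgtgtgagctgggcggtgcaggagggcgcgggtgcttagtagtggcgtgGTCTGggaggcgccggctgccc
The Ltbp1 window of 250 bases held 1 match and the Tgfbi window of 187 bases held 2. Of all 32851 promoters in the table, 42.2% held a match on either strand in 250 bases and 34.2% in the first 187 bases, so a match of this length is common.

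Before the members, the libraries were checked against their labels. The lymphocyte markers Cd3e, Cd3d, Ms4a1 and Cd79a had a median of 0 CPM in all 3 tissues, and Ms4a1 was at 0 in every sample. CPM are counts scaled to library depth and corrected for composition within a tissue. Summed proximal tubule markers, which define kidney, reached 829.5 CPM in Heart Sham 2 and 2431 CPM in Heart Sham 3, against 4.82 to 66.7 CPM in the other Heart samples. Summed epididymal markers (Crisp1, Lcn5, Adam7 and Spinkl) were 4564 to 9897 CPM in VFAT Sham 1, 3, 4 and 5, 79.6 CPM in VFAT Sham 2 and 0.16 to 35.5 CPM in VFAT PNx. Adipocyte markers (Adipoq, Plin1, Lep and Cidec) summed to 760 to 5299 CPM in those 4 Sham samples and to 9929 CPM in Sham 2. In Kidney, PNx 3, 4 and 5 and control cells 4 and 5 stood apart in an index of RNA length, the mean log2 CPM of the shortest genes minus that of the longest. The index was -0.04 to 0.26 in these 5 samples and -1.22 to -1.01 in Sham. VFAT Sham 3 held skeletal muscle markers at 8171 CPM. VFAT scrambled cells held skeletal muscle markers at 445 to 33123 CPM, against 4.88 to 26.4 CPM in VFAT control cells. Pancreatic acinar markers were at 3231, 14842 and 420 CPM in scrambled cells 2, 3 and 4.

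Without injury, the kidney held less of all 3 ligands than the heart or the fat, and the fat held less Smad7 than both other tissues. Comparing Sham samples in 1 fit over all tissues, edgeR called 7 of 9 members between Heart and Kidney (58.7% of all 19180 genes tested), 5 of 9 between VFAT and Kidney (51.5%) and 4 of 9 between VFAT and Heart (57.1%). These shares lie near those of all genes, as tissues differ in most genes. Levels between genes are given as deposited FPKM, which are counts per length and depth.

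Tgfb1, the most widely expressed ligand (ENSMUSG00000002603, chromosome 7, 25687002 to 25705077), measured 9.95 ± 4.21 FPKM in Heart Sham, 2.50 ± 0.52 in Kidney Sham and 9.89 ± 2.68 in VFAT Sham (SD, n = 5 each). It was 3.68-fold higher in Heart than in Kidney (edgeR adjusted p = 1.0e-08) and 3.86-fold higher in VFAT than in Kidney (adjusted p = 4.5e-09), while Heart and VFAT overlapped. Without Heart Sham 2 and 3 the log2 difference of Heart against Kidney was 1.49 (adjusted p = 8.0e-06), compared with 1.88 with them. Tgfb2 (ENSMUSG00000039239, chromosome 1, 186622792 to 186705989) was ordered Heart, VFAT, Kidney at 2.1 ± 0.31, 0.95 ± 0.45 and 0.31 ± 0.10 FPKM. All 3 differences passed the test, at 6.36-fold for Heart over Kidney, 2.93-fold for VFAT over Kidney and a log2 difference of -1.12 for VFAT against Heart. Tgfb3 (ENSMUSG00000021253, chromosome 12, 86056745 to 86079041) showed the widest gap of the members, 6.76 ± 1.97 FPKM in Heart and 4.20 ± 1.31 in VFAT against 0.33 ± 0.08 in Kidney. The Heart level was 19.6-fold that of Kidney (adjusted p = 2.8e-14) and the VFAT level 12.4-fold (adjusted p = 7.3e-12). Ltbp1, which anchors the latent ligand (ENSMUSG00000001870, chromosome 17, 75005568 to 75392512), was at 4.42 ± 1.10 FPKM in Heart, 0.99 ± 0.53 in Kidney and 1.17 ± 0.59 in VFAT. It was 4.21-fold higher in Heart than in Kidney (adjusted p = 8.5e-09).

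Both receptors were lower in Heart than in Kidney. Tgfbr1 (ENSMUSG00000007613, chromosome 4, 47353222 to 47414931) measured 1.77 ± 0.60 FPKM in Heart Sham, 4.42 ± 0.15 in Kidney Sham and 4.83 ± 1.70 in VFAT Sham. The log2 difference of Heart against Kidney was -1.40 (SE 0.36, edgeR adjusted p = 0.00057). Tgfbr2 (ENSMUSG00000032440, chromosome 9, 116084293 to 116175360) was the member of highest median FPKM in each tissue, at 7.53 in Heart, 10.8 in Kidney and 11.1 in VFAT over all samples. In Sham it was lower in Heart than in Kidney, with a log2 difference of -0.94 (SE 0.31, adjusted p = 0.0071). That call was lost without Heart Sham 2 and 3, at -0.70 (adjusted p = 0.095).

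Smad3 (ENSMUSG00000032402, chromosome 9, 63646767 to 63757994) was the most even member, at 4.24 ± 0.75 FPKM in Heart, 5.78 ± 0.63 in Kidney and 6.09 ± 0.80 in VFAT, and passed no tissue test. Smad7 (ENSMUSG00000025880, chromosome 18, 75367529 to 75395935) measured 3.85 ± 1.11 FPKM in Heart and 3.65 ± 0.33 in Kidney but 1.54 ± 0.64 in VFAT. The log2 difference was -1.27 for VFAT against Kidney (adjusted p = 1.4e-05) and -1.29 against Heart (adjusted p = 1.1e-05). Tgfbi (ENSMUSG00000035493, chromosome 13, 56609523 to 56639562) was at 3.81 ± 1.35 FPKM in Heart, 1.21 ± 0.38 in Kidney and 4.93 ± 1.73 in VFAT. It was 3.02-fold higher in Heart and 3.99-fold higher in VFAT than in Kidney (adjusted p = 0.0051 and 0.00055).

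**Figure D1:**
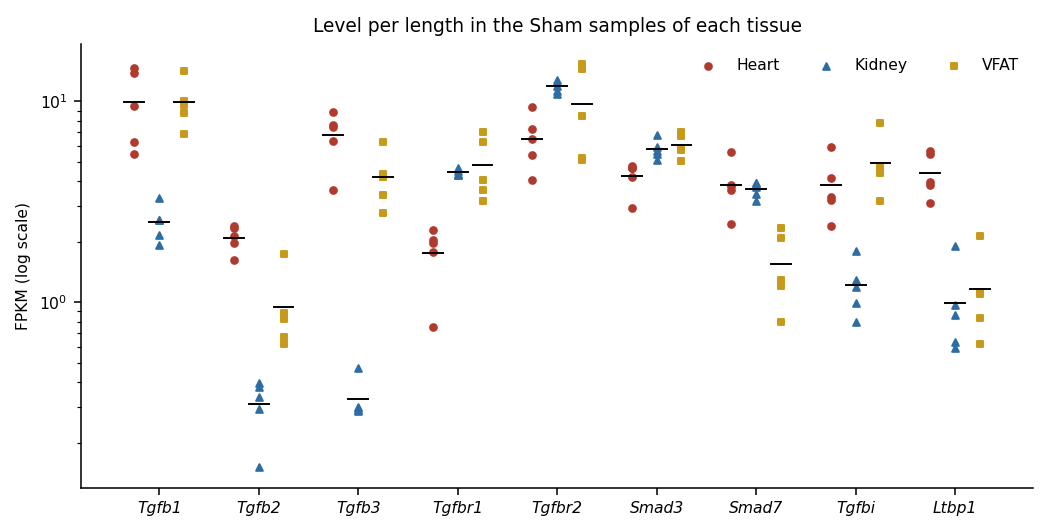
FPKM of the 9 genes in the Sham samples of each tissue, on a log axis, with 1 point per sample (n = 5 per tissue) and a line at the mean. The 3 ligands and Tgfbi lie lowest in Kidney, Tgfbr1 lowest in Heart, and Smad7 lowest in VFAT.

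VFAT Sham 2 was the VFAT Sham sample lowest in epididymal markers. With it as the only VFAT Sham sample, the spread is taken from the other groups and the smaller arm can by itself end a call, so these values are a description. Tgfb2 was then 0.94 higher in VFAT than in Kidney on the log2 scale. Tgfbr1 was 1.09 higher in VFAT than in Heart, and Ltbp1 had a log2 difference of -1.0 for VFAT against Heart, compared with 1.5 and -1.89 with all 5 samples. In whole tissue, fewer cells of a type and less RNA per cell cannot be told apart. Over all 15 groups in order of their mean, 11 to 14 of the 14 neighbouring pairs of each member lay within the larger SD of the pair. Sorting sets like means side by side, so this count does not show whether groups further apart differ. For Tgfbr1, Tgfbr2, Smad3 and Tgfbi all 14 neighbouring pairs lay within that SD.

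**Figure D2:**
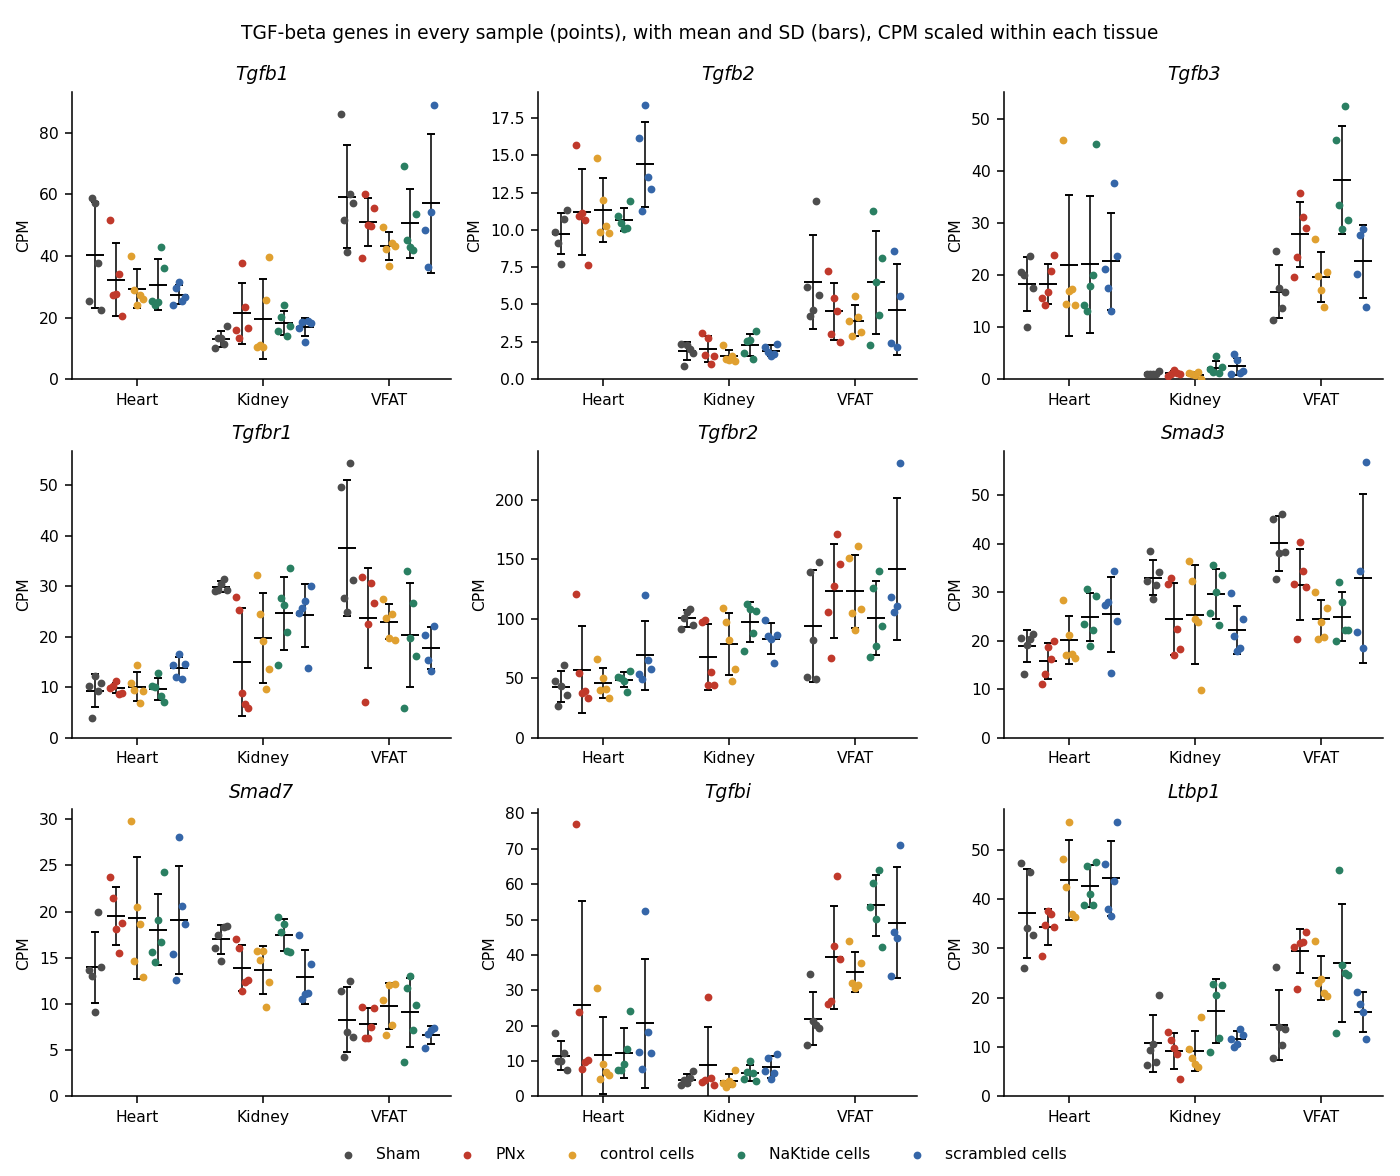
CPM of each member in every sample, grouped by tissue and coloured by arm, with bars at the mean ± SD. CPM are scaled within each tissue. Single high samples appear for Tgfbi and Tgfb3 in Heart, and low Tgfbr1 in Kidney lies in PNx and control cells.

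After PNx, which asks what the loss of kidney mass does to each tissue, members passed the test in VFAT alone. There Ltbp1 and Tgfbi rose, and 2 of 9 members were called, against 13% of the 17552 genes tested (4.83% called higher and 8.18% called lower). No member was called in Kidney, where 16.8% of 16307 genes were (9.25% higher and 7.56% lower), or in Heart, where 0.126% of 15091 genes were. The count of members at an unadjusted p under 0.05 was 3 in VFAT, 3 in Kidney and 0 in Heart, beside 27.2%, 42.2% and 15.8% of all genes, so the share of members was near that of all genes in VFAT and below it in Kidney and Heart. The median log2 difference of the 9 members was -0.08 in VFAT, -0.21 in Kidney and 0.08 in Heart, beside 0.01, 0.05 and -0.00 for all genes tested.

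In VFAT, Ltbp1 measured 7.81, 26.3, 14.1, 10.3 and 13.6 CPM in Sham 1 to 5 and 30.3, 21.7, 31.0, 31.3 and 33.3 CPM in PNx 1 to 5. Every PNx sample lay above 4 of the Sham samples, and Sham 2 lay inside the PNx range. The rise was 2.05-fold (log2 1.03, SE 0.29, edgeR adjusted p = 0.0239). Tgfbi measured 14.5, 34.5, 21.2, 20.2 and 19.5 CPM in Sham 1 to 5 and 26.0, 26.9, 42.4, 62.2 and 38.9 CPM in PNx 1 to 5. Sham 2 again lay among the PNx samples. Tgfbi rose 1.79-fold (log2 0.84, SE 0.25, adjusted p = 0.0286). Tgfb3 had the same arrangement, with 11.4, 24.7, 17.5, 13.7 and 16.8 CPM in Sham 1 to 5 and 19.7, 23.6, 35.7, 31.2 and 29.0 CPM in PNx 1 to 5. Its log2 difference of 0.73 did not pass in edgeR (adjusted p = 0.0531) and did in DESeq2 (adjusted p = 0.0285) and in limma voom (adjusted p = 0.0036). In none of the 9 members were the PNx and Sham groups free of overlap, against 5.65% of the genes tested.

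Sham 2 was also the Sham sample lowest in epididymal markers. With the score of those markers as a covariate, the log2 difference was 0.14 for Ltbp1 (edgeR adjusted p = 0.93) and -0.11 for Tgfbi (adjusted p = 0.93). All Sham samples lay above all PNx samples in these markers, so that fit cannot tell the markers and the arm apart. With Sham 2 as the only Sham sample, the differences were 0.17 for Ltbp1 and 0.18 for Tgfbi, which restates that this sample lies among the PNx samples. Macrophage markers moved along with the members: their 7 genes summed to 232 to 517 CPM in Sham and 529 to 1153 CPM in PNx, and 4 of 7 were called higher. The part of the macrophage markers in the result was not tested. Both calls were also lost in a fit of only the 2 arms (adjusted p = 0.082 and 0.13), in which fewer samples inform the spread and the log2 differences were 1.004 for Ltbp1 and 0.80 for Tgfbi. Ltbp1 lost its call without Sham 1, Sham 4, Sham 5 or PNx 5, at log2 differences of 0.88, 0.95, 1.01 and 0.99. Tgfbi lost it without Sham 1, 3, 4 or 5 (0.72, 0.82, 0.82 and 0.79) and without PNx 3, 4 or 5 (0.81, 0.61 and 0.84).

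**Figure D3:**
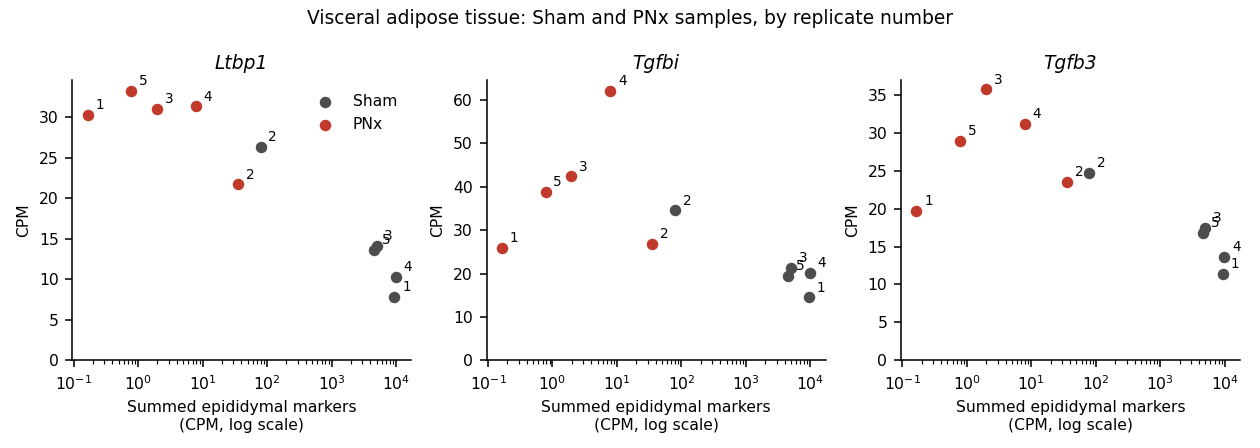
CPM of Ltbp1, Tgfbi and Tgfb3 in VFAT Sham and PNx samples (5 each, numbered by replicate) against the summed CPM of 4 epididymal markers on a log axis. The 4 Sham samples at 4564 CPM or more hold the lowest values of Ltbp1, and Sham 2, at 79.6 CPM, lies with the PNx samples.

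The remaining VFAT members did not pass. Tgfb1 was at 59.2 ± 16.7 CPM in Sham and 50.9 ± 7.80 in PNx, and Tgfb2 at 6.51 ± 3.13 and 4.55 ± 1.92 CPM. Tgfbr1 was at 37.5 ± 13.5 CPM in Sham and 23.7 ± 9.95 in PNx, and Tgfbr2 at 94.1 ± 47.0 and 124 ± 39.7 CPM. Smad3 was at 40.0 ± 5.59 CPM in Sham and 31.6 ± 7.33 in PNx, and Smad7 at 8.30 ± 3.52 and 7.87 ± 1.65 CPM (SD, n = 5 each).

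In Kidney, the receptors were the members nearest to a call. Tgfbr1 measured 29.0, 29.2, 30.5, 31.5 and 29.2 CPM in Sham 1 to 5 and 27.8, 25.2, 8.94, 6.73 and 5.89 CPM in PNx 1 to 5. The groups did not overlap, as in 12.9% of the genes tested, and PNx 3, 4 and 5 lay far below PNx 1 and 2. The log2 difference was -0.99 (SE 0.36, edgeR adjusted p = 0.0560). Tgfbr2 measured 91.6, 100.5, 105.9, 108.5 and 95.2 CPM in Sham and 97.6, 99.2, 44.0, 55.0 and 44.0 CPM in PNx. PNx 1 and 2 were within the Sham range and PNx 3, 4 and 5 below it. The log2 difference was -0.56 (adjusted p = 0.0778). Tgfb1 measured 10.02, 13.2, 13.3, 11.3 and 17.2 CPM in Sham and 16.0, 13.3, 37.7, 23.3 and 16.5 CPM in PNx, with PNx 3 the highest. Its log2 difference was 0.71 (adjusted p = 0.0895). Smad3, at 33.0 ± 3.65 CPM in Sham and 24.4 ± 7.44 in PNx, had a log2 difference of -0.43 (adjusted p = 0.145).

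DESeq2, which called 27.5% of all genes here, called Tgfbr1 alone (adjusted p = 0.0316). The limma voom fit with sample weights, which called 44.3% of all genes, called Tgfb1, Tgfbr1, Tgfbr2 and Smad3. PNx 3, 4 and 5, which carry the low receptor values, are the PNx samples of high RNA length index. The same held in control cells: Tgfbr1 was at 9.71 and 13.6 CPM in control cells 4 and 5 and at 19.1 to 32.2 CPM in control cells 1 to 3. In the NaKtide and scrambled arms, the sample of highest index, NaKtide cells 1 at -0.18 and scrambled cells 4 at -0.20, also held the lowest Tgfbr1 of its arm, 14.4 and 13.8 CPM. Leaving out PNx 3, 4 and 5 and control cells 4 and 5 left PNx 1 and 2 against Sham. The log2 differences were then -0.18 for Tgfbr1, -0.03 for Tgfbr2, 0.16 for Tgfb1 and -0.04 for Smad3. As the low receptor values were removed, these restate the values of PNx 1 and 2. With the index as a covariate and all samples kept, the differences were -0.43, -0.14, 0.28 and -0.06. The index partly follows the arm, so index and arm cannot be fully told apart in that fit. Exon lengths in GENCODE M21 are 6534 bases for Tgfbr1 and 8187 for Tgfbr2, beside 5042 for Tgfb1. The index sets genes of at most 1549 bases against genes of at least 6946.

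**Figure D4:**
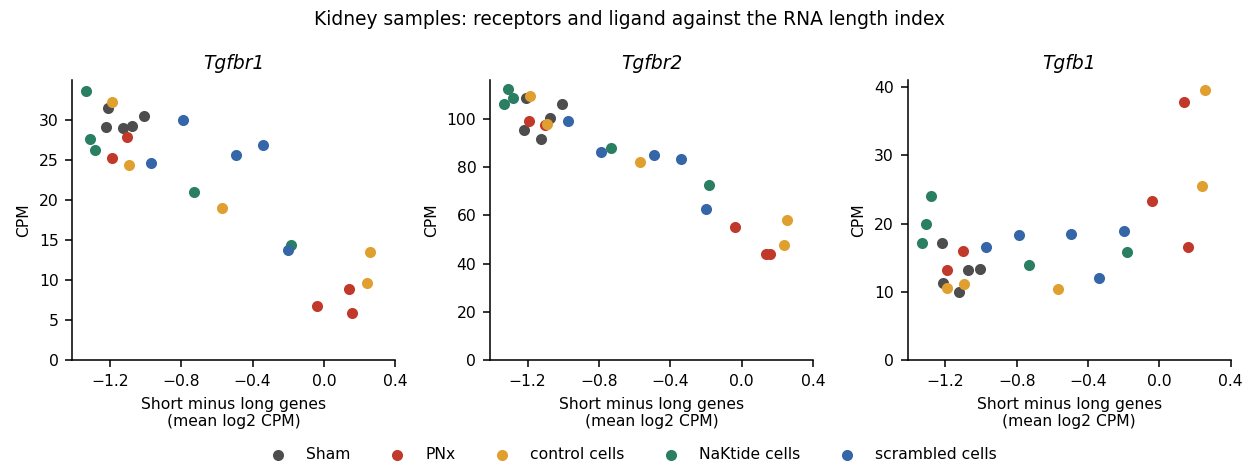
CPM of Tgfbr1, Tgfbr2 and Tgfb1 in all 25 Kidney samples against the index of RNA length, the mean log2 CPM of short minus long genes, coloured by arm. Both receptors are lowest in the 5 samples at -0.04 or above, which are PNx 3, 4 and 5 and control cells 4 and 5.

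Tgfbi in Kidney rested on 1 sample. It was at 28.0 CPM in PNx 3 and at 3.22 to 5.05 CPM in the other PNx samples, against 3.12 to 7.03 CPM in Sham. PNx 3 also held neutrophil markers at 2568 CPM and macrophage markers at 1372 CPM, against 3.51 to 18.9 and 98.7 to 249 CPM in the other PNx samples. Their part in the Tgfbi value was not tested. The members of low level rested on few counts in Kidney: Tgfb3 was at 1.15 ± 0.28 CPM in Sham and 1.14 ± 0.44 in PNx, and Tgfb2 at 1.86 ± 0.59 and 2.01 ± 0.89 CPM. Ltbp1 was at 10.8 ± 5.77 and 9.28 ± 3.64 CPM, and Smad7 at 17.0 ± 1.59 and 13.9 ± 2.47 CPM. In control cells 5, the shallowest library, Tgfb3 had 0 counts.

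In Heart, the largest difference of the 9 was that of Tgfbi, and it rested on PNx 1 and 2. Tgfbi measured 17.98, 9.99, 10, 12.4 and 7.35 CPM in Sham 1 to 5 and 77.2, 23.8, 7.62, 9.68 and 10.3 CPM in PNx 1 to 5. The log2 difference was 1.15 (SE 0.64, edgeR adjusted p = 0.377). PNx 1 and 2 held neutrophil markers at 1159 and 569 CPM, against 2.52 to 12.3 CPM in Sham. Without PNx 1, PNx 2 and scrambled cells 3, the 3 Heart samples of high neutrophil markers, the difference was -0.34 (adjusted p = 0.807). Since PNx 1 and 2 held the highest Tgfbi of the arm, this restates the values of PNx 3, 4 and 5. The part of the neutrophil markers was not tested. Smad7 was at 13.9 ± 3.87 CPM in Sham and 19.5 ± 3.18 in PNx (log2 0.46, adjusted p = 0.333). The groups overlapped in all 9 members, and 1.59% of the genes tested had no overlap. Tgfb1 was at 40.3 ± 17.1 CPM in Sham and 32.3 ± 11.9 in PNx, with its highest values, 58.7 and 57.3 CPM, in Sham 2 and 3. These are the 2 samples that held proximal tubule markers, and their RNA length index was 0.23 and 0.06, against -0.79 to -0.54 in the other Sham samples. The part of either in the Tgfb1 values was not tested. Ltbp1 was at 37.1 ± 9.03 and 34.4 ± 3.63 CPM, and Tgfbr2 at 42.8 ± 12.9 and 57.2 ± 36.5 CPM.

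Across all 25 Heart samples, the 5 of highest Tgfbi were also the 5 of highest macrophage markers. Tgfbi was at 52.4 CPM in scrambled cells 3 and 30.7 CPM in control cells 1, which held macrophage markers at 876 and 502 CPM, and PNx 1 held them at 1436 CPM. The median macrophage sum was 259 CPM in Sham. Fibroblast markers summed to 802 CPM in PNx 1, 830 CPM in scrambled cells 3, 605 CPM in control cells 1 and 479 CPM in NaKtide cells 5. They summed to 279 CPM in PNx 2, and their median in Sham was 215 CPM. Tgfb3 was highest in each cell arm's sample of high atrial markers (Myl7, Sln and Nppa): 46.1 CPM in control cells 1, 45.1 CPM in NaKtide cells 5 and 37.7 CPM in scrambled cells 4. Those samples held atrial markers at 3286 to 4623 CPM, against 15.4 to 122 CPM in Sham. Heart PNx 5 held atrial markers at 2927 CPM and Tgfb3 at 23.8 CPM, the highest of its arm but close to the 23.7 CPM of Sham 4. The part of any of these marker lists in these values was not tested.

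**Figure D5:**
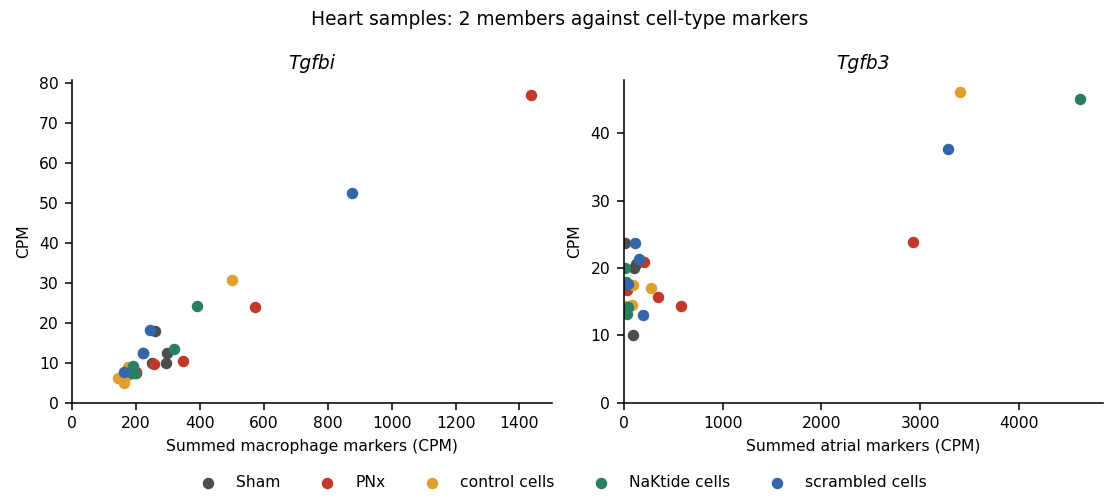
Left, CPM of Tgfbi against summed macrophage markers, and right, CPM of Tgfb3 against summed atrial markers, in 25 Heart samples coloured by arm. Tgfbi reaches 77.2 CPM at 1436 CPM of macrophage markers, and 3 of the 4 samples of highest atrial markers hold 37.7 to 46.1 CPM of Tgfb3.

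Between tissues, the response to PNx was called different for 1 member, a count near the share of all genes. A test of the difference of the PNx effect called 1 of 9 members between Kidney and VFAT (11.7% of genes), Ltbp1, at a log2 difference of -1.29 (SE 0.40, edgeR adjusted p = 0.0265). None of 9 was called between Kidney and Heart (12% of genes) or between VFAT and Heart (9.41% of genes), where Ltbp1 had 1.15 (adjusted p = 0.0528). At an unadjusted p under 0.05 the counts were 4 of 9 (30.4% of genes) and 1 of 9 (24.1%). DESeq2 called 1 of 9 in each, beside 17.8% and 12.4% of genes. The tests with VFAT rest on its Sham samples, and with Sham 2 as the only one the log2 difference for Ltbp1 between Kidney and VFAT was -0.41, given here with no test since that arm then has 1 sample. The call was also lost without Kidney Sham 5 (-0.92), Kidney PNx 5 (-1.08), VFAT Sham 1 (-1.13) or VFAT Sham 4 (-1.18).

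The transplanted cells were compared with PNx alone and with each other, which asks whether the cells or their NaKtide cargo altered the response. No member passed in any of these 12 comparisons. In Heart, 0% of genes were called in all 4. In Kidney 0% were called in 3 and 0.0123% between scrambled and control cells. In VFAT 0% were called for control cells and for NaKtide cells against PNx, 2.36% for NaKtide against scrambled cells and 2.41% for scrambled against control cells. At an unadjusted p under 0.05, the counts of members for NaKtide against scrambled cells were 2 of 9 in Heart (5.98% of genes), 1 in Kidney (5.02%) and 2 in VFAT (19.4%). For the same comparison DESeq2 called 1 of 9 in VFAT (9.05% of genes) and none in Kidney (0.0859%) or Heart (0.0199%). The limma voom fit called none in VFAT (4.79%) or Heart (0%) and 3 in Kidney (27%). In the other Kidney comparisons of the cell arms it called 3 members each, beside 12.8% of genes for control cells against PNx, 41.5% for NaKtide cells against PNx and 9.13% for scrambled against control cells.

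Between NaKtide and scrambled cells, Tgfb3 in VFAT came nearest. It measured 46.1, 33.5, 28.92, 52.6 and 30.5 CPM in NaKtide cells 1 to 5 and 20.1, 27.8, 28.88 and 13.9 CPM in scrambled cells 1 to 4. Every NaKtide sample lay above every scrambled sample, by the smallest margin between NaKtide 3 and scrambled 3, as in 5.61% of genes tested. The log2 difference was 0.75 (edgeR adjusted p = 0.104), and DESeq2 called it (adjusted p = 0.0320). Without scrambled cells 4 it was 0.59 (adjusted p = 0.301). All 4 scrambled samples held skeletal muscle markers, at 3514, 33123, 445 and 21694 CPM against 22.8 to 67.7 CPM with NaKtide cells, and 4 of 4 of these genes were called lower with NaKtide cells. Pancreatic acinar markers were at 2.34 to 12.7 CPM with NaKtide cells, and both genes tested were called lower too. For Tgfb3, the muscle content and the arm cannot be told apart, and the part of the acinar markers was not tested. Tgfb3 was at 27.8 ± 6.29 CPM in PNx and 19.6 ± 4.81 in control cells. In VFAT scrambled cells 4, macrophage markers reached 7526 CPM, and this sample held the highest Tgfb1 (89.1 CPM), Tgfbr2 (231 CPM), Smad3 (56.8 CPM) and Tgfbi (71.1 CPM) of its arm and the lowest Ltbp1 (11.7 CPM). Tgfbi in VFAT was at 54.0 ± 8.60 CPM in NaKtide cells, 49.1 ± 15.7 in scrambled cells (n = 4), 35.1 ± 5.66 in control cells and 39.3 ± 14.7 in PNx.

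In Kidney, Ltbp1 was at 17.4 ± 6.47 CPM with NaKtide cells, 11.7 ± 1.46 with scrambled cells, 9.15 ± 4.10 with control cells and 9.28 ± 3.64 in PNx. NaKtide cells 2, 3 and 5 held 20.6 to 22.7 CPM and NaKtide cells 1 and 4 held 9.03 and 11.8 CPM. The same split appeared in the RNA length index, at -1.31, -1.28 and -1.33 in NaKtide cells 2, 3 and 5 and -0.18 and -0.73 in NaKtide cells 1 and 4. Ltbp1 has an exon length of 10691 bases. Fibroblast markers summed to 59.5, 120.6 and 62.1 CPM in NaKtide cells 2, 3 and 5 and to 24.9 and 29.8 CPM in NaKtide cells 1 and 4, and their part was not tested. The log2 difference from scrambled cells was 0.58 (edgeR adjusted p = 0.879), which limma voom called at 0.89 (adjusted p = 0.0114). With the index as a covariate it was 0.29 (edgeR adjusted p = 0.760). Tgfbr1 in Kidney was at 24.6 ± 7.25 CPM with NaKtide cells, 24.2 ± 6.17 with scrambled cells and 19.8 ± 8.90 with control cells, all between the Sham and PNx means of 29.9 and 14.9 CPM. No member's NaKtide and scrambled samples were free of overlap in Kidney (1.21% of genes) or in Heart (1.77%). In Heart, Tgfbi was at 12.3 ± 7.04 CPM with NaKtide cells and 20.6 ± 18.2 with scrambled cells (log2 -0.74, adjusted p = 0.733). Ltbp1 was at 42.6 ± 4.26 and 44.2 ± 7.66 CPM, and Tgfbr1 at 9.69 ± 2.16 and 13.8 ± 2.07 CPM.

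The wider pathway was read through 42 further genes in 5 lists, all tested in every tissue. After PNx, edgeR called 5 higher and 5 lower in Kidney (16.8% of all genes), 5 higher and 3 lower in VFAT (13%) and none in Heart (0.126%). With 1 sample left out, the Kidney counts ranged from 0 to 7 higher and 0 to 10 lower, and the VFAT counts from 3 to 8 higher and 2 to 4 lower. Shares of all genes called in those leave-outs are not given here. Whether a lost call is particular to the pathway genes is therefore not shown. In Kidney, 3 of 12 targets rose, beside 9.25% of all genes, and none fell, and the median log2 difference of the targets was 0.39 beside 0.05 for all genes. Tagln, a smooth muscle actin-binding protein, rose 2.78-fold from 4.11 ± 1.03 to 11.6 ± 5.70 CPM (adjusted p = 0.0231). Acta2, smooth muscle actin, rose 2.07-fold from 19.9 ± 3.69 to 41.1 ± 25.5 CPM (adjusted p = 0.0269). Timp1, an inhibitor of matrix metalloproteinases, rose 9.18-fold from 0.20 ± 0.15 to 1.92 ± 3.34 CPM (adjusted p = 0.0462), with 7.89 CPM in its highest PNx sample. All 10 Kidney calls were lost without PNx 3, the sample of high neutrophil markers. Without it the log2 differences were 1.13 for Tagln, 0.57 for Acta2, 1.07 for Timp1, 0.30 for Itgb5 and 0.40 for Pmepa1, beside 1.48, 1.05, 3.2, 0.49 and 0.78 with it. Of the 10 ways to leave out 1 sample, 4 ended the call of Tagln, 4 that of Acta2, 7 that of Pmepa1, and 8 those of Timp1 and Itgb5. The collagen Col1a1 was at 11.8 ± 2.75 CPM in Sham and 27.4 ± 15.8 in PNx (log2 1.21, adjusted p = 0.0589). Ccn2, a matrix-associated target, was at 33.1 ± 14.5 and 35.1 ± 27.3 CPM.

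Of the 4 Kidney signal transducers, Smad2 and Smad4 fell, beside 7.56% of all genes called lower. Their log2 differences were -0.80 and -0.76 (edgeR adjusted p = 0.0246 and 0.0309). Smad2 was at 24.5 ± 2.29 CPM in Sham and 14.02 ± 5.42 in PNx, and Smad4 at 33.6 ± 1.60 and 19.7 ± 8.55 CPM. Among 10 inhibitors, Skil, a corepressor of Smads, and Smurf2, a ubiquitin ligase, fell (log2 -1.23 and -0.78), and Pmepa1, which sequesters Smads, rose 1.72-fold. Among 11 genes of latency and activation, the integrin chain Itgb8 fell (log2 -1.77, adjusted p = 0.0351) and the integrin chain Itgb5 rose 1.41-fold (adjusted p = 0.0397). None of the 5 genes listed as co-receptors passed. Without PNx 3, the log2 differences of the 5 lower genes were -0.63 for Smad2, -0.64 for Smad4, -1.09 for Skil, -0.62 for Smurf2 and -1.54 for Itgb8 (adjusted p = 0.0816, 0.119, 0.110, 0.136 and 0.122). Of the 10 leave-outs, 5 ended the call of Smad2, 7 that of Skil, and 8 those of Smad4, Smurf2 and Itgb8. Without the 5 samples of high RNA length index, which leaves only PNx 1 and 2, none of the 42 genes was called. So small an arm can by itself end a call. With the index as a covariate, which partly follows the arm, 0 were called higher and 1, Itgb8, lower. Macrophage markers were called higher for 4 of 7 genes and neutrophil markers for the 3 tested in the same comparison. A fit of only the 2 arms, in which fewer samples inform the spread, called none of the 42. Shares of all genes called in these alternative fits are not given here.

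In VFAT, 2 of the 5 genes listed as co-receptors rose after PNx, beside 4.83% of all genes called higher. That list also holds the type I receptor Acvrl1. Acvrl1, a type I receptor of endothelium, rose 1.96-fold from 26.6 ± 9.45 to 52.0 ± 5.74 CPM (adjusted p = 0.00124), and its co-receptor Eng rose 1.92-fold from 67.5 ± 30.7 to 129 ± 28.3 CPM (adjusted p = 0.0228). Endothelial markers summed to 115 to 453 CPM in Sham and 329 to 698 CPM in PNx, and 2 of 4 were called higher. Their part in Acvrl1, Eng and the other VFAT calls was not tested. Of the inhibitors, the proteoglycan Dcn rose 2.36-fold (adjusted p = 0.00755). Skil, the ubiquitin ligase Nedd4l and the corepressor Tgif1 fell, with log2 differences of -2.58, -0.93 and -1.61 (adjusted p = 0.00872, 0.00211 and 0.0489). Lrrc32, which holds latent TGF-beta on cell surfaces, rose 2.38-fold (adjusted p = 0.0172), and the target Id1, an inhibitor of DNA binding, rose 3.26-fold (adjusted p = 0.00081). Tgif1 lost its call in 8 of 10 leave-outs (log2 -1.77 to -1.33, adjusted p = 0.0569 to 0.163). Eng and Lrrc32 lost theirs in 3, without PNx 5, Sham 1 or Sham 4, at 0.82, 0.76 and 0.81 for Eng and 1.06, 1.05 and 1.10 for Lrrc32. The calls of the other 5 genes were lost in none. None of 4 signal transducers passed. Col1a1 was at 164 ± 92.5 CPM in Sham and 137 ± 60.0 in PNx, and Ccn2 at 8.11 ± 5.08 and 7.46 ± 2.44 CPM. With the epididymal score as a covariate, none of the 42 was called, but the score and the arm cannot be told apart in that fit. A fit of only the 2 arms called 1 higher and 1 lower. For these 2 fits the shares of all genes called are not given here.

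In Heart, none of the 42 genes passed after PNx, and 10 of 12 targets lay above 0 with a median log2 difference of 0.77, beside -0.00 for all genes. In limma voom the median of the targets was 0.16, with 8 of 12 above 0. Without the 3 samples of high neutrophil markers the edgeR median of the targets was -0.04, with 5 of 12 above 0. The PNx arm was then PNx 3, 4 and 5 alone, and the part of the neutrophil markers was not tested. Col1a1 was at 76.8 ± 29.8 CPM in Sham and 156 ± 178 in PNx, and Ccn2 at 80.3 ± 18.2 and 132 ± 83.7 CPM. Between NaKtide and scrambled cells the median of the targets in Heart was -0.87, beside -0.02 for all genes. It was -0.32 without the 3 samples of high neutrophil markers, of which this comparison holds scrambled cells 3. Col1a1 there was at 119 ± 39.1 CPM with NaKtide cells and 232 ± 193 with scrambled cells (log2 -0.96, adjusted p = 0.721). The target median for scrambled against control cells was 1.02, beside 0.02 for all genes. Against PNx it was -0.59 for control cells and -0.49 for NaKtide cells, beside -0.00 and -0.01 for all genes. The scrambled arm thus stood above both other cell arms in these medians, with 0 targets called in each comparison. None of the 42 genes passed between NaKtide and scrambled cells in any tissue in edgeR. Ccn2 in VFAT was at 18.5 ± 4.32 CPM with NaKtide cells and 7.39 ± 1.79 with scrambled cells (log2 1.33, adjusted p = 0.0904). DESeq2 and limma voom called it (adjusted p = 0.0236 and 0.0329). Without scrambled cells 4 the log2 difference was 1.49 (edgeR adjusted p = 0.215). The muscle content of the scrambled samples and the arm cannot be told apart here either, and the part of the acinar markers was not tested.

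The genes whose log2 CPM followed Tgfb1 and Tgfbi most closely were picked by Pearson's r over the samples of a tissue, which share arms and tissue composition. For Tgfb1 they were Mapk3 (r = 0.95), Mfge8 (0.95) and Gnb2 (0.94) in Heart, over 25 samples and 8604 genes. In Kidney they were Cuedc1 (0.91), Pdlim7 (0.90) and Cdc42ep2 (0.90), over 25 samples and 9381 genes. In VFAT they were Tmem173 (0.84), Atf6b (0.81) and Pygo2 (0.81), over 24 samples and 9710 genes. For Tgfbi they were Nbl1 (0.95), the macrophage receptor Csf1r (0.94) and Man2b1 (0.93) in Heart, Serping1 (0.87), Laptm5 (0.86) and Serpine2 (0.86) in Kidney, and C1s1 (0.94), Sulf1 (0.92) and Gfpt2 (0.91) in VFAT. No gene was among the first 3 in more than 1 tissue.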

How the data were processed

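RNA was extracted from frozen tissue with a Qiagen RNeasy Plus Universal kit, per the labels' protocols. Build GRCm38 and the tools HISAT2 2.1.0, Trimmomatic 0.38, and DESeq2 in versions 1.20.1 and 1.20.0 come from the submitters' processing notes. Counter, strand setting and annotation were not given in the sources used here. Reads of overlapping or antisense genes may be mixed.

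The authors deposited raw counts per gene, which all tests used, and FPKM, used for levels between genes. Each of 2 second libraries of number 3 was added to the first, giving 74 samples, and their deposited FPKM were averaged. Median totals were 8495773 counts in Heart, 9245410 in Kidney and 7807674 in VFAT, so at the median depth a gene at 1 CPM rests on fewer than 10 counts. Each tissue was fitted over its 5 arms, and all 15 groups together for contrasts between tissues, in R 4.3.3 with edgeR 4.0.16, after its expression filter and TMM scaling, by the quasi-likelihood F test. The joint fit treated samples of different tissues as independent. P-values are two-sided and adjusted by Benjamini-Hochberg over all genes, with calls at 0.05. Scripts were tested on simulated data for PNx vs Sham, with 200 genes changed per tissue. Changes of 1.5-fold were recovered for 20.9% of such genes in Heart, 7.46% in Kidney and 0% in VFAT. For 2-fold changes the shares were 58.2%, 43.3% and 18.2%. The number of changed genes was set, so these shares need not hold here, but a gene without a call may still have changed. Alternatives were DESeq2 1.42.0, limma 3.58.1 voom with quality weights, other scaling, no filter, 2 arms only, a replicate block, other handling of the second libraries, covariates and samples left out.

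The 9 members and all lists were chosen with earlier results of these data known. The text names all members, up to 4 called genes per list and comparison in PNx vs Sham and in NaKtide against scrambled cells, Ccn2 and Col1a1, and for Tgfb1 and Tgfbi the 3 genes of highest r whose mean log2 CPM was 3 or more. Some genes of the lists are counted but not reported here by name.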

Additional observations from a re-analysis of the deposited data

Results flagged for a closer look

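Among 135 groups of member values, 14 held a sample whose gap to its nearest neighbour was large against the range of the group, where chance gives about 1 in 20. Heart PNx 1 was high in Tgfbi (77.2 CPM) and Tgfbr2 (121 CPM), and Heart scrambled cells 3 likewise (52.4 and 119.95 CPM). Both held neutrophil markers, at 1159 and 716 CPM. Heart control cells 1 was high in Tgfb3 (46.1 CPM) and Tgfbi (30.7 CPM), and Heart NaKtide cells 5 in Tgfb3 (45.1 CPM), both with high atrial markers. Heart Sham 2, which held kidney transcripts, was low in Smad3 (13.0 CPM).

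In Kidney, PNx 3 was high in Tgfbi (28.0 CPM), Sham 5 in Tgfb3 (1.64 CPM) and control cells 1 in Tgfb2 (2.28 CPM), the last 2 at levels of few counts. In VFAT, Sham 4, the sample of highest epididymal markers, was high in Tgfb2 (11.9 CPM), scrambled cells 4, of highest macrophage markers, in Tgfbr2 (231 CPM), and PNx 2 was low in Ltbp1 (21.7 CPM). The part of the markers in these values was not tested.

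Ltbp1 was the 1 of 9 members called for a different PNx effect between Kidney and VFAT, beside 11.7% of genes. The log2 difference was -1.29, and -0.41 with Sham 2 as the only VFAT Sham sample. It lost the call without Kidney PNx 5, Kidney Sham 5, VFAT Sham 1 or VFAT Sham 4, at -1.08, -0.92, -1.13 and -1.18 (adjusted p = 0.0676, 0.120, 0.0714 and 0.0651).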

How the results depend on the processing

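In Heart no alternative called a member in an arm comparison. In Kidney PNx vs Sham, 0 members became 1 with DESeq2, with the replicate block and with the second library kept separate, and 4 with limma voom, and 0 to 3 when 1 sample was left out (2 without PNx 1, 3 without PNx 2). In the 4 other Kidney comparisons limma voom called 3 each, beside 9.13% to 41.5% of all genes. In VFAT PNx vs Sham, 2 calls became 0 in the fit of 2 arms and with the epididymal score. That score and the arm cannot be told apart. The count ranged from 0 to 3 with 1 sample left out. With Sham 2 as the one Sham sample (an arm of 1, with its spread taken from the other groups), the log2 differences are given above. Ltbp1 was not called without Sham 1, 4 or 5 or PNx 5, and Tgfbi without Sham 1, 3, 4 or 5 or PNx 3, 4 or 5. DESeq2 called 1 member for NaKtide against scrambled cells in VFAT. The counts in Sham tissue comparisons stayed within 1.5 times of 7, 5 and 4. For differences of the PNx effect, DESeq2 called 1 member between Kidney and Heart, and leaving out 1 sample gave 0 to 3. Between Kidney and VFAT the count was 0 with Sham 2 alone and 0 to 2 with 1 sample left out. Between VFAT and Heart it was 1 with DESeq2, its size factors, the replicate block or without Heart Sham 2 and 3, and 0 to 1 with 1 sample left out. Shares of all genes called with 1 sample left out are not given here, and the cause was not tested.

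Direction reversed for Tgfbi in Heart PNx vs Sham with limma voom (-0.012) and without the 3 samples of high neutrophil markers (-0.34). In VFAT PNx vs Sham it reversed with the epididymal score for Tgfbi (-0.11) and Lrrc32 (-0.0039) and with Sham 2 alone for Tgif1 (0.71). The alternatives on markers, and on Heart Sham 2 and 3 in the joint fit, were chosen after seeing the data. Same-numbered samples did not deviate together: 18 of 50 pairs in Heart, 20 of 50 in Kidney and 15 of 46 in VFAT had r over 0.1 across genes, so the replicate block is not taken as a pairing.

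Low levels limit Tgfb2 and Tgfb3 in Kidney most. FPKM and CPM per length gave Sham levels within 1 SD of each other in all 27 cases.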

Other observations

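In Kidney, Tgfb3 lay above 3 CPM in 3 of 25 samples, NaKtide cells 3 (4.43 CPM), scrambled cells 2 (4.76 CPM) and scrambled cells 3 (3.75 CPM), and at 0 to 2.34 CPM in the others. Adipocyte markers summed to 61.9, 220.0 and 3.43 CPM in these 3 samples, and to 72.1 CPM in NaKtide cells 1 and 119.8 CPM in control cells 5, where Tgfb3 was at 1.89 and 0 CPM.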
